A study of Mus musculus with 18 samples.

Results

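The genes described here run the cell division cycle in mouse liver: they license and copy the genome, supply its building blocks and carry cells through mitosis. The list names 44 genes, taken wherever a microarray probe set (called a probe here) is annotated to exactly 1 of them, with the probe of the highest mean signal kept where a gene has several. This gave 42 measured genes among 22180 genes with such a probe and 34472 probes in all. No probe is named for the mitotic cyclin Ccnb1 in the annotation used here, and the only probe of the S-phase cyclin Ccne2 is shared with another gene, so both were not analysed here. By role, 13 measured genes belong to origin licensing and the replication fork, 4 to nucleotide supply, 20 to mitosis and 5 to the control of G1 and S phase. The first 2 sets make up the 17 replication genes named below.

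Total liver RNA from male C57BL6 mice was hybridised to 18 arrays, 3 mice in each of 6 groups. A low-fat diet (10% of calories from fat) or a high-fat diet (45%) was fed for 12 weeks, from 6 to 18 weeks of age, alone or with 1 of a pair of perfluorinated compounds, perfluorooctane sulfonate (PFOS) or perfluorononanoic acid (PFNA). Both compounds carry a fully fluorinated carbon chain, which ends in a sulfonate group in PFOS and in a carboxylate group in PFNA. The groups were low-fat control, low-fat PFOS, low-fat PFNA, high-fat control, high-fat PFOS and high-fat PFNA. The labels state no dose, so PFOS and PFNA are set side by side without a claim that their doses match.

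In a resting liver nearly all hepatocytes sit outside the cell cycle. A cell that enters it loads the Mcm2 to Mcm7 helicase onto replication origins with the help of Orc1, Cdc6 and Cdt1, fires it with the GINS complex, and copies DNA with nucleotides made by ribonucleotide reductase. The cell then either divides, driven by cyclin-dependent kinase 1 and the mitotic kinases, or stops short of division, which in mouse hepatocytes is a common route to polyploidy. Transcription of the replication genes is classically placed under E2F factors, and that of the mitosis genes under complexes that bind the cell cycle homology region (CHR) of their promoters. Compounds that act through the receptors CAR and PPARA are known to bring rodent hepatocytes into the cycle.

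Most mitosis genes, unlike most of the other members, were near the lower end of what the array can show. A background level was set at 4.39 on the log2 scale, the 95th percentile of 1405 probes for olfactory and vomeronasal receptors, which liver does not use. The mean signal exceeded it for 26 of 42 genes, against 51.7% of all probes. It did so for 9 of 13 licensing and fork genes, 4 of 4 nucleotide genes, 5 of 5 regulators of G1 and S phase, and 8 of 20 mitosis genes. The dim replication genes were Cdc6, Orc1, Gins1 and Gins2. The 12 dim mitosis genes were Top2a, Cdc25c, Bub1, Bub1b, Birc5, Cenpe, Cenpf, Kif11, Kif20a, Nuf2, Ndc80 and Foxm1, and small differences in them are hard to see on this array.

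The liver label was borne out by all 10 hepatocyte markers, which were above background, with group means between 12.2 and 12.5. Median signal per array lay between 4.43 and 4.59, and array pairs correlated at 0.975 to 0.991. On the first principal component of all probes, with 17.9% of the variance, the 3 high-fat PFOS arrays (27.8 to 38.6) were joined by low-fat PFOS replicate 3 (32.9) and high-fat PFNA replicate 3 (32.4), while the other 13 arrays lay between -22.9 and -8.08. These last 2 replicates therefore stood apart from their groups, and results that change without them are given both ways. The PPARA target Acot1 read 11.5 and 11.2 in them, and 10.8 to 11.7 in the high-fat PFOS arrays, against 9.55 to 10.1 in the other exposed arrays.

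Part of the replication machinery, mainly helicase subunits, rose with exposure when both compounds and both diets were averaged. In that comparison 7 of 42 genes were called at an adjusted p under 0.05, all of them higher in the 12 exposed livers than in the 6 unexposed ones, where 5.01% of all probes were called. At an unadjusted p under 0.05 the count was 10 of 42, against 18.97% of all probes. The 7 were the helicase subunits Mcm2, Mcm4, Mcm5 and Mcm7, the GINS subunit Gins1, the large ribonucleotide reductase subunit Rrm1, and cyclin A2 (Ccna2), the partner of CDK2 and CDK1 in S phase and G2. Thus 5 of 13 licensing and fork genes, 1 of 4 nucleotide genes, 1 of 20 mitosis genes and 0 of 5 regulators passed. The median log2 difference was 0.38 over Mcm2 to Mcm7, 0.18 over the 17 replication genes and 0.06 over the 20 mitosis genes, against -0.01 over all probes. Among genes above background it was 0.28 for 13 replication genes and 0.10 for 8 mitosis genes.

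**Figure D1:**
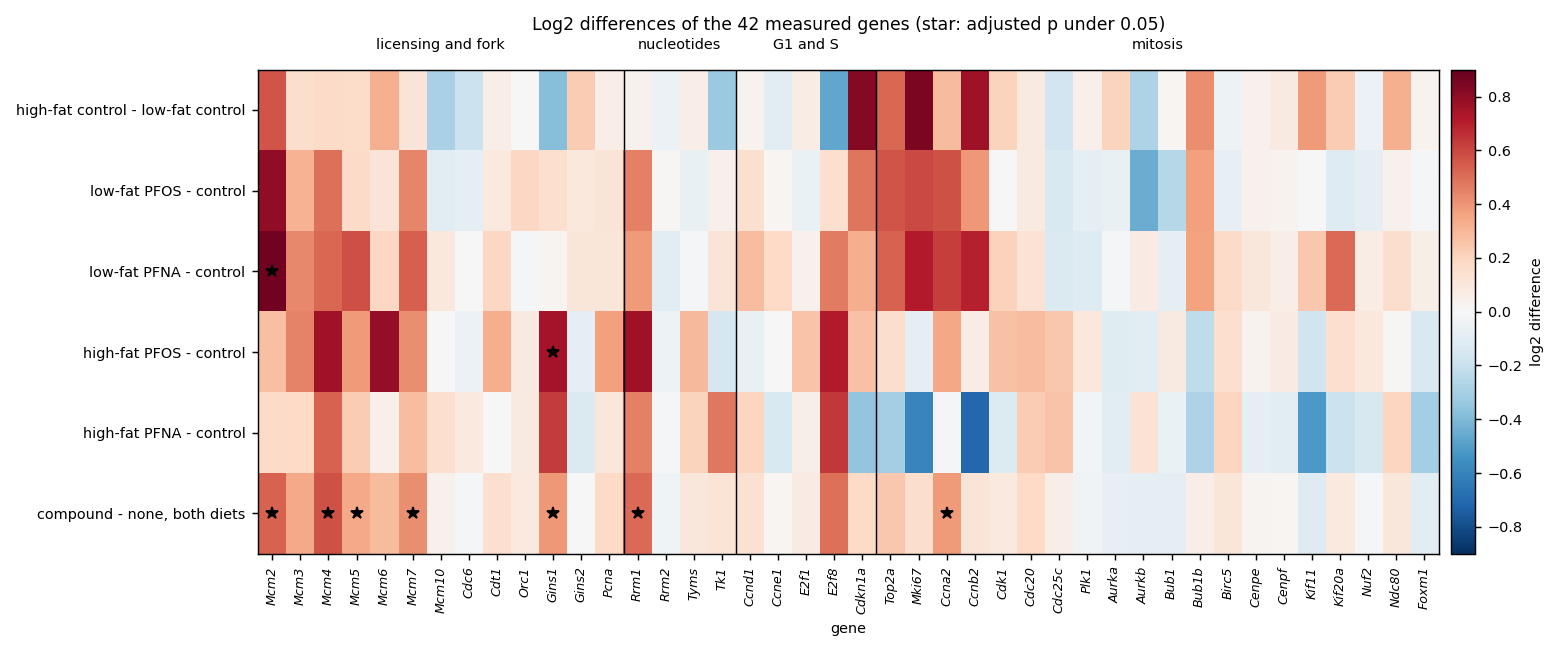
Log2 differences of the 42 measured genes (columns, by role) in 6 comparisons (rows); red is higher and blue is lower in the group named first, and a star marks an adjusted p under 0.05. The Mcm2 to Mcm7 columns are red in all 4 exposure rows, and the bottom row, which averages both compounds and diets, holds 7 of the 9 stars.

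Mcm4, a core subunit of the replicative helicase, gave the largest difference among the 42 genes in the comparison averaged over diets. It read 5.08, 5.13 and 4.82 in the low-fat controls, 5.51, 5.40 and 5.60 under low-fat PFOS, 5.34, 5.40 and 5.85 under low-fat PFNA, 5.17, 5.35 and 5.03 in the high-fat controls, 6.14, 5.68 and 5.99 under high-fat PFOS, and 5.28, 5.85 and 6.01 under high-fat PFNA. Of the 12 exposed livers, 10 were above every control. The difference was 0.57 (SE 0.11, adjusted p = 0.00786), a 1.49-fold rise.

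Mcm2, the subunit whose protein is widely stained as a mark of licensed cells, read 4.95, 5.03 and 5.04 in the low-fat controls and 5.64, 5.60 and 5.47 in the high-fat controls. Exposed livers read 5.79, 5.63 and 6.00 (low-fat PFOS), 5.81, 5.72 and 6.09 (low-fat PFNA), 6.25, 5.58 and 5.70 (high-fat PFOS) and 5.49, 5.59 and 6.14 (high-fat PFNA). The low-fat controls were the lowest 3 of the 18 arrays, and 8 of 12 exposed livers exceeded every control. The difference was 0.53 (SE 0.11, adjusted p = 0.0119). Under PFNA on the low-fat diet the rise was 0.87 (SE 0.18, adjusted p = 0.0388), with 3 of 3 arrays above all controls. This was the 1 member called in that comparison, in which 0.566% of all probes were called. In the other exposed groups Mcm2 differed from its diet's controls by 0.80 under low-fat PFOS (adjusted p = 0.0739), 0.27 under high-fat PFOS (adjusted p = 0.574) and 0.17 under high-fat PFNA (adjusted p = 0.828).

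Mcm5 and Mcm7, further subunits of the same ring, followed. Mcm7 read 5.31, 5.57 and 5.46 in low-fat controls, 5.87, 5.90 and 5.88 under low-fat PFOS, 5.88, 5.96 and 6.11 under low-fat PFNA, 5.47, 5.78 and 5.44 in high-fat controls, 5.96, 5.82 and 6.17 under high-fat PFOS, and 5.47, 5.85 and 6.20 under high-fat PFNA. Only high-fat PFNA replicate 1 of the 12 exposed livers fell within the range of the controls, and the difference was 0.42 (SE 0.099, adjusted p = 0.0205). Mcm5 read 4.80, 5.06 and 4.84 in low-fat controls, 5.16, 5.07 and 4.98 under low-fat PFOS, 5.70, 5.21 and 5.52 under low-fat PFNA, 5.03, 5.08 and 5.08 in high-fat controls, 5.64, 5.27 and 5.44 under high-fat PFOS, and 5.07, 5.40 and 5.40 under high-fat PFNA. Here 9 of 12 exposed livers were above all controls, for a difference of 0.34 (SE 0.088, adjusted p = 0.0319).

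The remaining ring subunits, Mcm3 and Mcm6, had differences of the same sign that did not pass. Mcm3 differed by 0.34 (95% interval 0.07 to 0.61, adjusted p = 0.147). Mcm6 differed by 0.28 (interval -0.08 to 0.65, adjusted p = 0.403), and its values were uneven: high-fat PFOS livers read 6.93, 5.98 and 6.18, against 5.56, 5.48 and 5.68 in high-fat controls and 5.05, 5.42 and 6.39 under high-fat PFNA. All 6 subunits had positive differences in each of the 4 single comparisons of a compound with its diet's controls, with medians of 0.38 (low-fat PFOS), 0.53 (low-fat PFNA), 0.43 (high-fat PFOS) and 0.20 (high-fat PFNA). The comparisons within a diet share that diet's 3 controls.

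**Figure D2:**
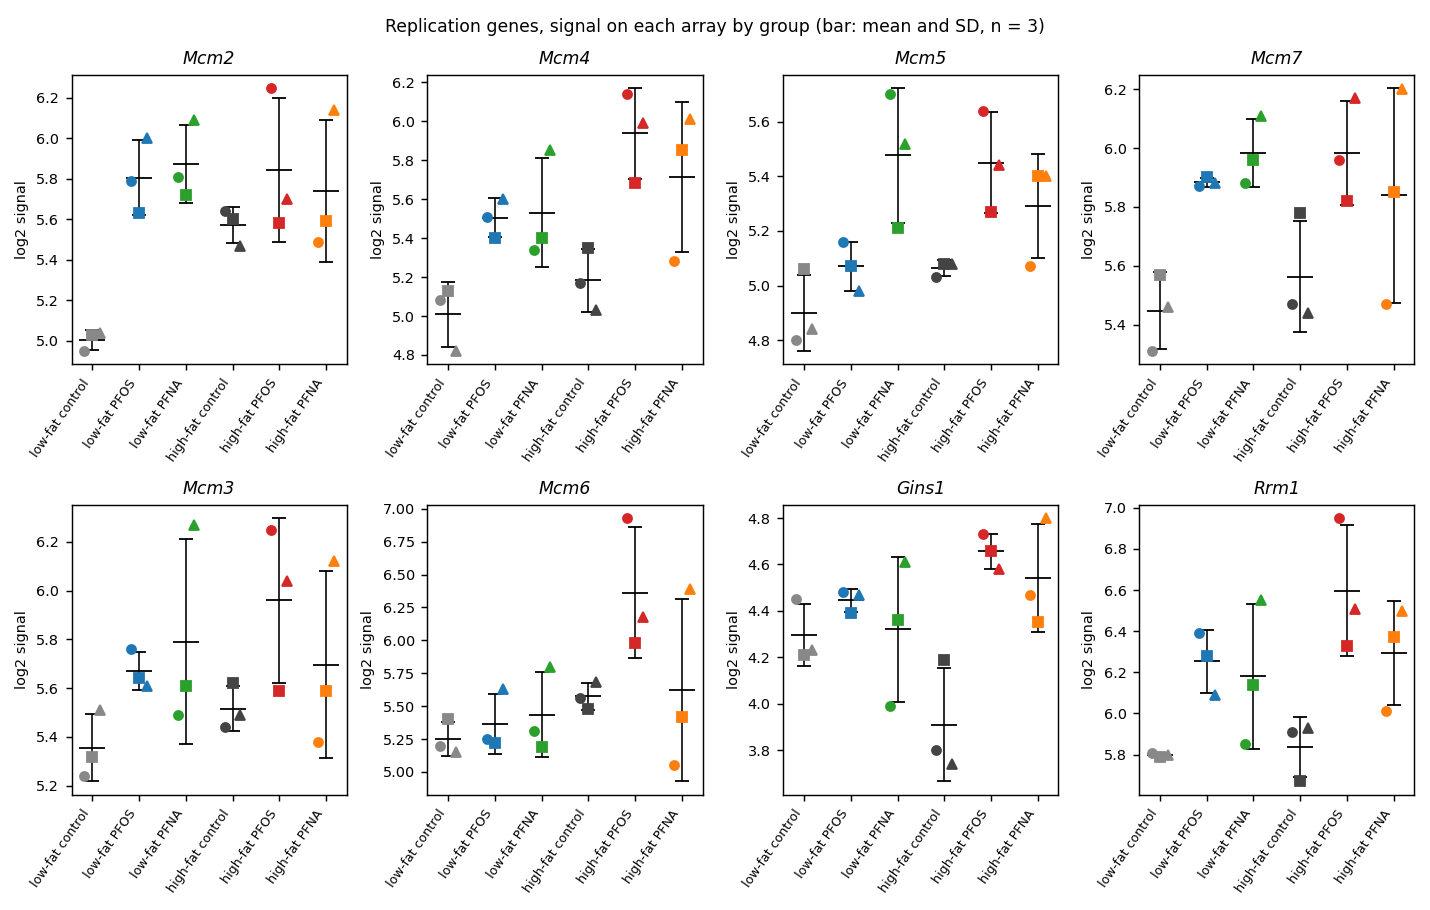
Log2 signal of 8 replication genes on each of the 18 arrays, by group; circles, squares and triangles are replicates 1, 2 and 3, and bars give the mean and SD of 3 arrays. Mcm4 lies between 5.28 and 6.14 in exposed livers and between 4.82 and 5.35 in controls, and Mcm6 reaches 6.93 in high-fat PFOS replicate 1.

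Gins1, a subunit of the complex that activates the loaded helicase, differed in where it moved. It read 4.45, 4.21 and 4.23 in low-fat controls, 4.48, 4.39 and 4.47 under low-fat PFOS and 3.99, 4.36 and 4.61 under low-fat PFNA, so the low-fat groups overlapped. On the high-fat diet it read 3.80, 4.19 and 3.74 in controls, 4.73, 4.66 and 4.58 under PFOS and 4.47, 4.35 and 4.80 under PFNA, with no overlap between controls and either exposed group. The rise under PFOS on the high-fat diet was 0.75 (SE 0.16, adjusted p = 0.0359). It was the 1 member called there, where 1.02% of all probes were called. The rise averaged over diets was 0.39 (SE 0.0997, adjusted p = 0.0314). Whether the rise differed between diets did not pass: the diet-by-PFOS term was 0.60 (interval 0.11 to 1.08, adjusted p = 0.759). The mean signal of the probe, 4.36, was just under the background level.

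Rrm1, the subunit of ribonucleotide reductase that binds its substrates, separated exposed from unexposed livers as fully as Mcm7 did. It read 5.81, 5.79 and 5.80 in low-fat controls, 6.39, 6.28 and 6.09 under low-fat PFOS, 5.85, 6.14 and 6.55 under low-fat PFNA, 5.91, 5.67 and 5.93 in high-fat controls, 6.95, 6.33 and 6.51 under high-fat PFOS, and 6.01, 6.37 and 6.50 under high-fat PFNA. All exposed livers but low-fat PFNA replicate 1 exceeded every control, and the difference was 0.51 (SE 0.11, adjusted p = 0.0141). The other nucleotide genes did not pass: Rrm2, the small subunit made in S phase, differed by -0.04 (interval -0.19 to 0.11), the thymidylate synthase Tyms by 0.10 and the thymidine kinase Tk1 by 0.12. Rrm2 read 4.49 to 4.81 over all 18 arrays. Tk1 varied widely within groups, from 7.37 to 8.59, with low-fat PFOS livers at 8.04, 8.59 and 7.38.

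The sliding clamp Pcna, which holds the polymerase to DNA, differed by 0.18 averaged over diets (interval 0.02 to 0.33, adjusted p = 0.211). Under PFOS on the high-fat diet it read 7.73, 7.64 and 7.68 against 7.32, 7.34 and 7.28 in the controls, a difference of 0.37 that did not pass either (adjusted p = 0.165). Low-fat controls read 7.47, 7.12 and 7.17, a range that held all 6 exposed low-fat livers. The licensing factors Cdc6, Cdt1 and Orc1, and Gins2 and Mcm10, had differences averaged over diets between -0.01 and 0.15 with no call.

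Under PFOS on the high-fat diet 8 of 17 replication genes had all 3 exposed arrays above all 3 controls, a pattern shown in that direction by 9.71% of all probes: Mcm4, Mcm5, Mcm6, Mcm7, Cdt1, Gins1, Pcna and Rrm1. No mitosis gene of 20 did so, though 12 of the 20 are dim. By this count the lists differed less in the other exposed groups. Low-fat PFOS gave 5 of 17 replication and 3 of 20 mitosis genes, against 7.58% of all probes. Low-fat PFNA gave 5 of 17 and 5 of 20, against 10.1%, and high-fat PFNA 2 of 17 and 1 of 20, against 6.83%. For Rrm1 and Mcm4 the differences under high-fat PFOS were 0.76 (adjusted p = 0.0552) and 0.75 (adjusted p = 0.0589). Both were called without the pair of arrays that stood apart (adjusted p = 0.0363 and 0.0354, with 1011 probes called in all), among probes above background alone (0.0283 and 0.0304) and with trended and robust variances (0.0407 and 0.0474). High-fat PFOS replicate 1 was the highest of its group for 13 of 17 replication genes, high-fat PFNA replicate 3 for 11 of 17 and low-fat PFNA replicate 3 for 10 of 17.

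Leaving out single arrays showed how far these calls depend on 3 mice a group. Mcm2, Mcm4 and Rrm1 stayed called in the comparison averaged over diets in 18 of 18 leave-outs, with a highest adjusted p of 0.0378, 0.0273 and 0.0445. Mcm7 was lost without low-fat control replicate 1 or high-fat control replicates 1 or 3 (highest adjusted p = 0.0631). Gins1 was lost without low-fat control replicates 2 or 3, low-fat PFNA replicate 2, high-fat control replicates 1 or 3, or high-fat PFOS replicate 1 (highest 0.0963). Mcm5 stayed called in 8 of 18 leave-outs, and was lost without high-fat control replicates 1, 2 or 3, low-fat control replicates 1 or 3, low-fat PFOS replicate 1, low-fat PFNA replicates 1 or 3, high-fat PFOS replicate 1 or high-fat PFNA replicate 2 (highest 0.0831). Ccna2 stayed called in 7 of 18, and was lost without low-fat control replicates 2 or 3, low-fat PFOS replicate 1, low-fat PFNA replicates 1 or 3, high-fat control replicates 2 or 3, high-fat PFOS replicates 2 or 3, or high-fat PFNA replicates 1 or 3 (highest 0.115). The count of called genes fell from 7 to 4 without low-fat control replicate 3 or high-fat control replicate 1, and to 3 without high-fat control replicate 3. Without the pair of arrays that stood apart, 5 genes were called, and Gins1 (adjusted p = 0.0501) and Ccna2 (0.0630) were not. With array quality weights the same pair of genes missed the threshold (0.0650 and 0.0512).

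The calls within a single diet also turned on single arrays. Mcm2 under PFNA on the low-fat diet stayed called in 9 of 18 leave-outs, and was lost without any 1 array of the low-fat controls or of the low-fat PFNA group, and without low-fat PFOS replicate 1 or high-fat control replicates 2 or 3 (highest adjusted p = 0.193, without low-fat PFNA replicate 3). Gins1 under PFOS on the high-fat diet stayed called in 13 of 18, and was lost without any 1 high-fat PFOS array or high-fat control replicates 1 or 3 (highest 0.136). It was also lost in a fit of the 2 compared groups alone (adjusted p = 0.0761).

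The promoters of these genes are shown because 4 of the 6 called replication genes encode one helicase ring and the replication and mitosis lists differ in their letters. RefSeq promoter windows (GRCm38.p6, from 250 bases before to 50 after the start) were held for 33 of the 42 measured genes, among them Mcm2, Mcm5, Mcm7 and Rrm1 of the called genes. E2F-type letters (TTCCCGC or TTGGCGC or TTCGCGC or TTGCCGC, on either strand) were found in 9 of 14 replication genes (64.3%), 2 of 15 mitosis genes (13.3%) and 10.9% of all 27025 genes with a window. CHR-type letters (TTTGAA or TTCGAA, either strand) were found in 2 of 14 replication genes (14.3%), 12 of 15 mitosis genes (80%) and 21.7% of all genes. The CCAAT box, the letters bound by NF-Y, was found in 10 of 14 and 12 of 15, against 41.1% of all genes. The 150 bases before the start are printed 5′ to 3′ along the gene's strand, with matches to any of these letters in capitals; adjoining capitals can be overlapping matches on opposite strands. A match is a run of letters and not a measured binding site.
Mcm6 (chr1:128359706-128359855, minus strand): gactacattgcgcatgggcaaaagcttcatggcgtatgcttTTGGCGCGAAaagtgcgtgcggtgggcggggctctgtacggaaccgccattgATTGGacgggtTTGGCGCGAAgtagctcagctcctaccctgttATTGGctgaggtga
Mcm5 (chr8:75109359-75109508, plus strand): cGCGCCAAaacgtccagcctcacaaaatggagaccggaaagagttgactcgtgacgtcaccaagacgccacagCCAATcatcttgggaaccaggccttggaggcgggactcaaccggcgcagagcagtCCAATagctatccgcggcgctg
Rrm1 (chr7:102441545-102441694, plus strand): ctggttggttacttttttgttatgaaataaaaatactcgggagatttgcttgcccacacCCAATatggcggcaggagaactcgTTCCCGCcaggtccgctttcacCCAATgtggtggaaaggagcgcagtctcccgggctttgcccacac
Mcm2 (chr6:88898781-88898930, minus strand): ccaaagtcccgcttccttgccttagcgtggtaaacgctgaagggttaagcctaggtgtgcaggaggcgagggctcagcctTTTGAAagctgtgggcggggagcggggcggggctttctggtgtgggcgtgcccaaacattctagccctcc
Cdk1 (chr10:69352913-69353062, minus strand): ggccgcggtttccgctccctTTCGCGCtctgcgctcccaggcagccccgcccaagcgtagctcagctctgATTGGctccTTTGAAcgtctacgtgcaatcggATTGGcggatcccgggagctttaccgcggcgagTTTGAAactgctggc
Top2a (chr11:99024190-99024339, minus strand): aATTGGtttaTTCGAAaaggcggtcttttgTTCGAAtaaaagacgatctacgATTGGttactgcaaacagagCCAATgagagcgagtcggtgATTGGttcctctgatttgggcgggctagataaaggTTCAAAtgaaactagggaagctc
Mki67 (chr7:135716380-135716529, minus strand): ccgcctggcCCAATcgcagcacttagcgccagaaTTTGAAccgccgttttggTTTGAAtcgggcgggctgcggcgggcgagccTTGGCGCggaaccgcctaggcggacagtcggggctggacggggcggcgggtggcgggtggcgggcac

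Mcm6, Mcm5 and Rrm1 show E2F-type letters. Mcm2, called here, shows a CHR-type match and none of the E2F-type letters in its window. Cdk1, Top2a and Mki67 show CHR-type letters, with an E2F-type match in Cdk1 and Mki67 too. Of the replication genes with E2F-type letters, Mcm5, Mcm7 and Rrm1 were called averaged over diets. Mcm3, Mcm6 and Cdt1, all above background, were not called. Cdc6, Orc1 and Rrm2 had differences averaged over diets of -0.01, 0.085 and -0.04, and none was called. Cdc6 and Orc1 are dim, and Rrm2 is just above background at a mean of 4.64. Among called genes, Gins1 and Ccna2 had means of 4.36 and 4.60. Whether low signal hid a small rise in Cdc6, Orc1 or Rrm2 was not tested.

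Among the mitosis genes, 12 of 20 of them dim, the cyclin Ccna2 was the 1 called averaged over diets, a share close to the 5.01% of all probes. It read 4.36, 4.27 and 3.99 in low-fat controls, 4.90, 4.59 and 4.84 under low-fat PFOS, 4.89, 4.74 and 4.86 under low-fat PFNA, 4.63, 4.60 and 4.25 in high-fat controls, 4.56, 4.88 and 5.09 under high-fat PFOS, and 4.50, 4.22 and 4.71 under high-fat PFNA. The difference was 0.38 (SE 0.10, adjusted p = 0.0362), with 8 of 12 exposed livers above all controls. By group its difference was 0.57 and 0.62 under PFOS and PFNA on the low-fat diet, and 0.35 and -0.02 on the high-fat diet. Cdk1, the kinase that drives entry into mitosis, differed by 0.09 averaged over diets, the anaphase activator Cdc20 by 0.18 and the polo-like kinase Plk1 by -0.03.

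Mki67, the gene of the proliferation antigen Ki-67, was lowest in the low-fat controls. It read 4.45, 4.73 and 5.26 there, 6.01, 4.86 and 5.35 under low-fat PFOS, 5.43, 5.12 and 6.04 under low-fat PFNA, 5.72, 5.56 and 5.70 in high-fat controls, 5.92, 5.11 and 5.71 under high-fat PFOS, and 4.75, 5.49 and 4.95 under high-fat PFNA. Low-fat exposed livers overlapped their controls, and all 3 high-fat PFNA livers were below all 3 high-fat controls. Exposure differences were 0.59 and 0.72 on the low-fat diet and -0.08 and -0.60 on the high-fat diet (PFOS first), and none passed (adjusted p from 0.309 to 0.942).

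Cyclin B2 (Ccnb2), a partner of Cdk1, also had its lowest group mean in the low-fat controls. It read 5.03, 5.15 and 5.03 in low-fat controls, 5.72, 5.16 and 5.51 under low-fat PFOS, 5.80, 5.26 and 6.24 under low-fat PFNA, 5.79, 5.88 and 5.82 in high-fat controls, 5.96, 5.58 and 6.16 under high-fat PFOS, and 4.66, 5.15 and 5.57 under high-fat PFNA. Every low-fat exposed liver was above the low-fat controls, and every high-fat PFNA liver was below the high-fat controls. The PFNA differences were 0.70 on the low-fat diet (adjusted p = 0.191) and -0.70 on the high-fat diet (adjusted p = 0.312).

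Top2a, the topoisomerase that untangles chromosomes, read 3.58, 3.73 and 3.37 in low-fat controls and 3.98, 4.04 and 4.20 in high-fat controls, with exposed livers between 3.75 and 4.61 on the low-fat diet and between 3.16 and 4.46 on the high-fat diet. It was not above background on average. Kif20a, a kinesin of the dividing cell's midzone, read 4.25, 4.15 and 4.89 under low-fat PFNA and 3.94, 3.44 and 4.04 under low-fat PFOS, with 3.85, 4.06 and 3.85 in the controls. No comparison called either gene.

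**Figure D3:**
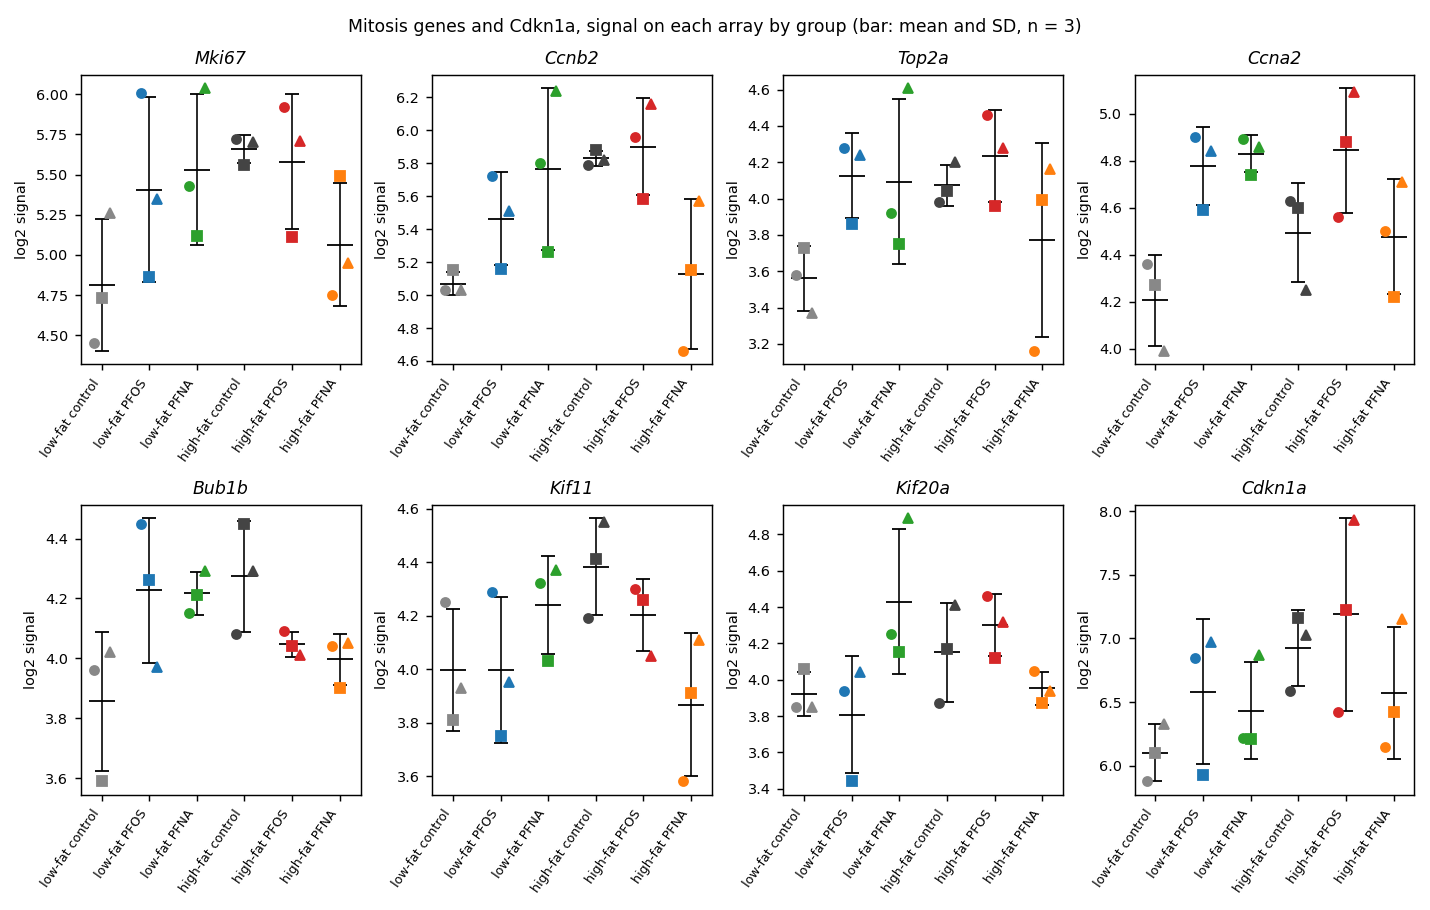
Log2 signal of 7 mitosis genes and of the cell cycle inhibitor Cdkn1a on each of the 18 arrays, by group; circles, squares and triangles are replicates 1, 2 and 3, and bars give the mean and SD of 3 arrays. For Ccnb2 the high-fat controls lie between 5.79 and 5.88, above the low-fat controls (5.03 to 5.15) and above high-fat PFNA (4.66 to 5.57).

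The high-fat diet alone called none of the 42 genes (limma), where 0.00290% of all probes, or 1 probe, were called. At an unadjusted p under 0.05 the count was 9 of 42, against 6.45% of all probes. The groups did not overlap, with the high-fat controls higher, for 8 of 42 genes, against 4.84% of all probes. The high-fat controls were wholly lower for 3 of 42 (Cdc6, Gins1 and Aurkb), against 5.54% of all probes. The largest differences were 0.85 for Mki67 (interval 0.22 to 1.48, adjusted p = 0.680), 0.82 for Cdkn1a (0.09 to 1.55, adjusted p = 0.766), 0.76 for Ccnb2 (0.26 to 1.26, adjusted p = 0.642), 0.56 for Mcm2 (0.18 to 0.95, adjusted p = 0.679) and 0.51 for Top2a (0.00 to 1.03, adjusted p = 0.774). The median was 0.14 over mitosis genes and 0.06 over replication genes, against -0.01 over all probes. E2f8 was lower by 0.47 (adjusted p = 0.797) and Gins1 by 0.39 (adjusted p = 0.766). Averaged over all exposures, high-fat against low-fat feeding called 0 members (0.00290% of all probes) and 9 at an unadjusted p under 0.05, against 8.31% of all probes, led by Cdkn1a (0.52) and Mcm6 (0.50).

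PFOS on the low-fat diet called 0 of 42 genes (limma), where 0.389% of all probes were called, and 8 had an unadjusted p under 0.05 against 11.95% of all probes. Replication genes had a median of 0.12 with 14 of 17 positive, and mitosis genes a median of 0 with 9 positive and 9 negative. PFNA on the low-fat diet gave medians of 0.12 and 0.14. PFOS on the high-fat diet gave 0.33 and 0.08. PFNA on the high-fat diet called 0 of 42 genes (limma), where 0.113% of all probes were called, with 6 at an unadjusted p under 0.05 against 9.77% of all probes. There the medians were of opposite sign, 0.17 for replication genes, 15 of 17 positive, and -0.10 for mitosis genes, 15 of 20 negative. In 5 of 20 mitosis genes (Mki67, Ccnb2, Bub1b, Kif11 and Foxm1) all 3 high-fat PFNA livers were below all controls, against 6.89% of all probes. These medians describe the lists and were not tested.

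The lists can also be followed array by array. Medians below are over the genes of a list, each gene taken as its difference from the low-fat control mean. For Mcm2 to Mcm7 the group means were 0.01 ± 0.10 (SD, n = 3) in low-fat controls, 0.39 ± 0.04 under low-fat PFOS, 0.49 ± 0.22 under low-fat PFNA, 0.20 ± 0.09 in high-fat controls, 0.73 ± 0.27 under high-fat PFOS and 0.48 ± 0.39 under high-fat PFNA. The spread in the last group ran from 0.10 in replicate 1 to 0.88 in replicate 3. For mitosis genes the means were -0.01 ± 0.06, 0.05 ± 0.07, 0.15 ± 0.07, 0.11 ± 0.06, 0.22 ± 0.02 and 0.03 ± 0.11 in the same group order, with high-fat PFOS above its controls and high-fat PFNA below them on average.

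**Figure D4:**
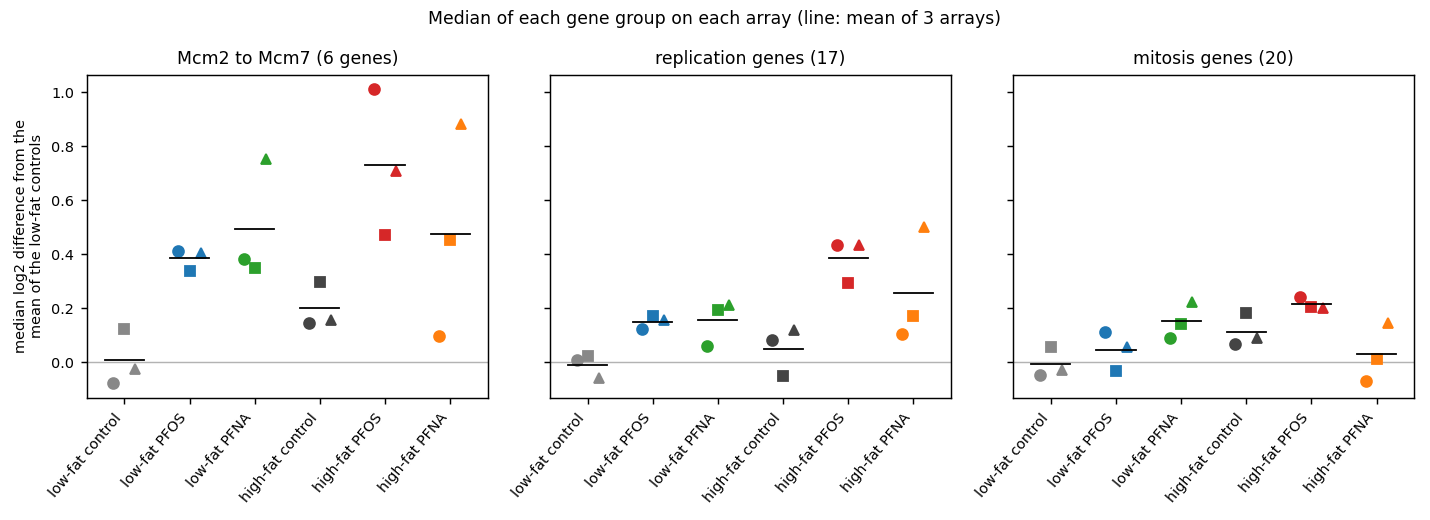
Median log2 difference from the low-fat control mean over Mcm2 to Mcm7, all 17 replication genes and all 20 mitosis genes, for each of the 18 arrays; circles, squares and triangles are replicates 1, 2 and 3, and lines are means of 3 arrays. The mean of high-fat PFOS is the highest in all 3 panels, and high-fat PFNA replicates spread from 0.10 to 0.88 for Mcm2 to Mcm7. For the replication genes the highest single array is high-fat PFNA replicate 3 (0.5).

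PFNA and PFOS were not told apart by any of the 42 genes. On the low-fat diet 0 were called (limma, 0% of all probes), with 3 at an unadjusted p under 0.05 against 3.92% of all probes: Kif20a (0.62 higher under PFNA, interval 0.21 to 1.04), Aurkb, a kinase of the chromosomal passenger complex (0.52, interval 0.13 to 0.90), and Mcm5 (0.41, interval 0.10 to 0.71). On the high-fat diet 0 were called (limma, 0.00290% of all probes), with 5 at an unadjusted p under 0.05 against 7.26% of all probes. The largest were -0.77 for Ccnb2 (interval -1.27 to -0.27, adjusted p = 0.646) and -0.74 for Mcm6 (interval -1.34 to -0.15, adjusted p = 0.654), both lower under PFNA. Without the pair of arrays that stood apart Mcm6 was called, at -1.13 (adjusted p = 0.0283), 1 of 510 probes called in that fit. For Mcm4 the intervals held differences of either sign, from -0.37 to 0.42 on the low-fat diet and from -0.62 to 0.17 on the high-fat diet.

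Diet within each compound was also compared. High-fat against low-fat PFOS called 0 genes (limma, 0% of all probes), with 8 of 42 at an unadjusted p under 0.05 against 7.73% of all probes, all 8 higher on the high-fat diet and led by Mcm6 (0.997, interval 0.40 to 1.59, adjusted p = 0.613). Without the pair of arrays that stood apart Mcm6 differed by 1.13 (adjusted p = 0.0225), 1 of 765 probes called. High-fat against low-fat PFNA called 0 (limma, 0% of all probes), with 4 at an unadjusted p under 0.05 against 4.18% of all probes: Ccnb2 (-0.64), Kif20a (-0.48), Kif11 (-0.37) and Ccna2 (-0.35).

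The interaction terms ask whether a compound's difference changed with the diet. For PFOS 0 of 42 genes were called (limma, 0% of all probes), with 2 at an unadjusted p under 0.05, Gins1 (0.60) and Bub1b (-0.60), against 6.36% of all probes. For PFNA 0 were called (limma, 0% of all probes), with 9 at an unadjusted p under 0.05 against 5.18% of all probes. Of these 9, 7 are mitosis genes with negative terms: Ccnb2 (-1.40, interval -2.11 to -0.69), Mki67 (-1.31), Top2a (-0.84), Kif11 (-0.76), Kif20a (-0.71), Ccna2 (-0.64) and Bub1b (-0.64). Mcm2 (-0.70) and Gins1 (0.61) were the others. Adjusted p-values of the 9 lay between 0.938 and 0.943. The term for a gene uses both control groups, so the higher control level on the high-fat diet enters it. Over all 6 groups at once the F test called 0 genes (limma, 0.960% of all probes), with Mcm4 (adjusted p = 0.0785) and Mcm2 (0.0862) nearest. Without the pair of arrays that stood apart Mcm2, Mcm4 and Mcm6 were called (0.0243, 0.0477 and 0.0258), with 1686 probes called in all.

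Among the regulators of G1 and S phase, E2f8, an atypical E2F that represses E2F targets and promotes polyploidy in hepatocytes, came nearest to a call. It read 7.02, 7.10 and 6.92 in low-fat controls, 7.37, 6.66 and 7.46 under low-fat PFOS, 7.71, 7.56 and 7.18 under low-fat PFNA, 6.28, 6.96 and 6.40 in high-fat controls, 7.27, 7.10 and 7.42 under high-fat PFOS, and 6.90, 6.99 and 7.66 under high-fat PFNA. The difference averaged over diets was 0.49 (interval 0.19 to 0.80, adjusted p = 0.0567), with 8 of 12 exposed livers above all controls. It was called among probes above background alone (adjusted p = 0.0316), with trended and robust variances (0.0447) and in 4 of 18 leave-outs, those without low-fat PFOS replicate 2, low-fat PFNA replicate 3, high-fat control replicate 2 or high-fat PFNA replicate 1 (lowest 0.0223). The activator E2f1 differed by 0.07, and high-fat PFOS replicate 1 was its highest array (5.78).

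Cyclin D1 (Ccnd1), which carries growth signals into G1, differed by 0.14 and ranged from 6.97 to 8.25 without order by group. Cdkn1a, the p21 inhibitor of cyclin-dependent kinases, read 5.88, 6.10 and 6.33 in low-fat controls and 6.59, 7.16 and 7.03 in high-fat controls. Its exposure differences were 0.48 and 0.33 on the low-fat diet and 0.26 and -0.35 on the high-fat diet (PFOS first), none of them called, and high-fat PFOS livers spread from 6.42 to 7.93.

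Lists of neighbouring genes gave the setting, in the same comparison averaged over diets, in which 5.01% of all probes were called. Of 27 other measured replication genes, 3 were called averaged over diets, all higher: Pole, the catalytic subunit of polymerase epsilon (0.54, adjusted p = 0.00319), the GINS subunit Gins4 (0.41, adjusted p = 0.0148) and the polymerase alpha subunit Pola2 (0.36, adjusted p = 0.0468). Their median was 0.17, with 23 of 27 positive. Of 37 other mitosis genes 2 were called higher, close to the share of all probes: the cytokinesis factor Ect2 (0.92, adjusted p = 2.30e-04) and the spindle checkpoint gene Mad2l1 (0.35, adjusted p = 0.0466), with a median of 0.08. Ect2 was also called under PFNA on the low-fat diet (1.19, adjusted p = 0.0101) and under PFOS on the high-fat diet (0.97, adjusted p = 0.0226). On the low-fat diet, other mitosis genes had medians of 0.14 under PFOS (31 of 37 positive) and 0.20 under PFNA (35 of 37). On the high-fat diet their medians were 0.01 (19 of 37) and 0 (18 of 37), PFOS first. Other replication genes had medians of 0.18 and 0.12 on the low-fat diet and 0.16 and 0.13 on the high-fat diet, PFOS first. These medians by diet were not tested.

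Brakes on the cycle gave 1 call of 15, close to the 5.01% of all probes called averaged over diets. It was the CDK1-inhibiting kinase Wee1 (0.72 higher, adjusted p = 0.01003). Of 14 p53 targets other than Cdkn1a, Plk2 (0.93, adjusted p = 8.12e-05) and Sesn1 (0.32, adjusted p = 0.0296) were higher and Trp53inp1 was lower (-0.80, adjusted p = 0.0216). Of 14 growth inputs, Gadd45b (0.95, adjusted p = 0.0136) and the D-type cyclin Ccnd3 (0.41, adjusted p = 0.01004) were higher and the growth factor Hgf was lower (-0.52, adjusted p = 0.0155). The CAR target Cyp2b10, shown as a sign of exposure, differed by 5.14 and the PPARA target Acot1 by 1.48.

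Markers of other liver cells moved across the groups too. Mean signal of 10 Kupffer cell and macrophage markers, all 10 above background, was 7.35 in low-fat controls (arrays 7.10 to 7.77), 7.92 under low-fat PFOS (7.68 to 8.24), 8.06 under low-fat PFNA (7.89 to 8.22), 7.63 in high-fat controls (6.92 to 8.08), 7.55 under high-fat PFOS (7.38 to 7.73) and 7.57 under high-fat PFNA (7.49 to 7.74). For 8 endothelial markers, all above background, it was 7.89, 8.40, 8.50, 8.17, 8.23 and 8.24, and for 8 lymphocyte markers, 5 of them above background, 4.51, 4.66, 4.75, 4.72, 4.51 and 4.55, in the same group order. The 8 stellate cell markers, all above background, read 7.02, 7.30, 7.24, 7.53, 7.19 and 7.22, the 5 bile duct markers, 2 above background, 4.25, 4.42, 4.35, 4.54, 4.39 and 4.36, and the 1 red cell marker 5.18, 5.27, 5.45, 5.12, 5.34 and 5.18. None of 6 neutrophil markers was above background. Mean hepatocyte marker signal was 12.2 to 12.3 in exposed groups and 12.5 and 12.4 in the low-fat and high-fat controls. In the comparison averaged over diets, 5.01% of all probes were called. There 3 of 10 hepatocyte markers were called lower (Apoa1, Serpina1a and Pck1) and 1 of 8 endothelial markers higher (Oit3). None of the 10 Kupffer, 8 lymphocyte, 6 neutrophil, 8 stellate, 5 bile duct and 1 red cell markers was called by limma. The part of these lists in the results was not tested. In whole liver RNA, a change in the number of cells of a type and a change in RNA per cell cannot be told apart.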

How the data were processed

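Liver RNA of 18 mice, 3 in each of 6 groups named by the sample titles, was read on 1-colour arrays. The deposited values are log2 signals, made by the authors with Transcriptome Analysis Console (no version given), per the submitters' processing notes; the log base was read from the range of the values (background correction and normalization: not given in the sources used here). No further normalization was applied. Differences were fitted with limma 3.58.1 in R 4.3.3, with 1 mean per group over all 34472 probes (12 residual and 5.21 prior degrees of freedom) and Benjamini-Hochberg adjustment over all probes within each comparison, called under 0.05. The script was tested on simulated data. Replicate numbers of the labels were checked for pairing: same-numbered arrays of different groups correlated above 0.1 in their deviations in 3 of 45 pairs (range -0.07 to 0.42), so no block was used. Genes named with array values were those called in any comparison, a short standing list (Mcm2, Pcna, Rrm2, Mki67, Top2a, Ccnb1, Ccnd1, Cdkn1a) and the 3 of each role with the largest F; other genes named were chosen after their values were seen. Members, roles and gene lists were chosen with earlier results of these data known. Probes with 1 gene symbol in the platform annotation numbered 23521, with several 1814 and with none 9137. The number of arrays limits the precision. Alternatives were quantile normalization, probes above background alone, the compared groups alone, a replicate block, and trended and robust variances. Others were array weights, the probe of the lowest mean signal per gene, single arrays left out, and 2 arrays that stood apart left out.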

Additional observations from a re-analysis of the deposited data

Results flagged for a closer look

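For 2 genes the PFNA livers moved in opposite directions on the 2 diets. Ccnb2 was above all low-fat controls in 3 of 3 low-fat PFNA livers and below all high-fat controls in 3 of 3 high-fat PFNA livers, and the diet-by-PFNA term was -1.40 (SE 0.34, adjusted p = 0.938 by limma). Bub1b, a kinase of the spindle checkpoint, read 4.15, 4.21 and 4.29 under low-fat PFNA against 3.96, 3.59 and 4.02 in low-fat controls, and 4.04, 3.90 and 4.05 under high-fat PFNA against 4.08, 4.45 and 4.29 in high-fat controls. Its diet-by-PFNA term was -0.64 (SE 0.20, adjusted p = 0.942 by limma), and its probe was not above background. Neither term passed the test over all probes. Each term also holds the gap between the control groups, which were higher on the high-fat diet by 0.76 for Ccnb2 and 0.42 for Bub1b. The diet-by-PFOS term of Bub1b was similar, at -0.60, and was not called.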

How the results depend on the processing

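Of the 69 differences of named genes with an unadjusted p under 0.05, none changed sign under any alternative run. They were picked for that p in these same data, so a change of sign was unlikely from the start. The replicate block, the trended and robust variances and the background filter also leave the estimates themselves unchanged. Counts of called genes moved as follows. Under PFOS on the high-fat diet (1 as reported) the count was 2 with quantile normalization, with probes above background alone and with array weights, 3 with trended and robust variances and without the pair of arrays apart, 0 with the compared groups alone, and 0 to 3 with single arrays left out. Under PFNA on the low-fat diet (1) it was 3 above background, 2 with array weights and 0 to 1 with single arrays left out. Under PFOS on the low-fat diet (0) it was 1 above background (Mcm2) and 0 to 1 with single arrays left out. Over the 6 groups (0) it was 2 above background, 3 without the pair apart and 0 to 1 with single arrays left out. High-fat PFNA against PFOS, and high-fat against low-fat PFOS, went from 0 to 1 without the pair apart (Mcm6). Averaged over diets (7), it was 5 with array weights and without the pair apart, and 8 with trended and robust variances (E2f8 gained). With single arrays left out it was 3 to 8. Above background it stayed 7, now of 26 genes, with E2f8 in place of the dim Gins1. In that fit 2368 of 17814 probes were called, a larger share than the 5.01% of all probes in the main fit. The replication median became 0.28 above background, where dim genes drop out. With the replicate number as a block, or with the lowest probe per gene, no call changed (7 averaged over diets, 1 under high-fat PFOS and 1 under low-fat PFNA). Over all probes, counts for low-fat PFOS, low-fat PFNA, high-fat PFOS, high-fat PFNA and the 6 groups at once were 134, 195, 352, 39 and 331 as reported. They were 267, 548, 765, 114 and 683 above background, 276, 532, 578, 73 and 710 with array weights, and 454, 593, 1011, 148 and 1686 without the pair apart. Trended and robust variances gave 388, 550, 120 and 547 for the last 4 of these, and quantile normalization 85 for low-fat PFOS. With single arrays left out the 5 counts ranged from 22 to 260, 26 to 348, 61 to 664, 9 to 80 and 160 to 958, and the count averaged over diets (1726) from 1073 to 1972. Without the pair apart, probes called also rose from 1 to 510 (high-fat PFNA against PFOS), 0 to 765 (high-fat against low-fat PFOS), 0 to 83 (diet-by-PFOS term) and 1 to 44 (diet averaged over exposures). The diet alone gave 0 to 3 against 1, and high-fat PFNA against PFOS gave 0 against 1 with quantile normalization and with the replicate block. Averaged over diets, Gins1 and Ccna2 were lost with array weights and without the pair apart. The cause of these moves was not tested. Signal over background limits what can be seen of the 16 dim genes.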
